A study of Homo sapiens with 12 samples.

Results

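Head and neck squamous cell carcinoma cells that had become resistant to afatinib were compared between the FaDu and Cal27 backgrounds, by setting the change from parental to resistant (AfaR) cells in FaDu against the same change in Cal27. The comparison used 8 of the 12 RNA-seq libraries of the series, chosen by their labels: 2 FaDu parental, 2 FaDu AfaR, 2 Cal27 parental and 2 Cal27 AfaR libraries. FaDu is an established line from a hypopharyngeal squamous carcinoma and Cal27 an established line from a tongue squamous carcinoma, and all 8 libraries carry the genotype label WT. Afatinib is an irreversible inhibitor of the ERBB family of receptor tyrosine kinases. By the study's methods, each AfaR model came from stepwise exposure of parental cells to rising afatinib, so that each line has 1 resistant population. The libraries of a group are labelled as biological replicates of that population, so p-values measure the spread between cultures and not between independently derived resistant populations. The labels give FaDu cells EMEM and Cal27 cells DMEM as medium, so line and medium cannot be told apart. The study's methods also state that resistant stocks were maintained in drug, with a last day off drug before experiments. Stable resistance and this recent drug exposure and withdrawal cannot be told apart. All 8 libraries share 1 batch label.

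ERBB receptors are activated by ligands such as the EGF-like factors and pass their signal through RAS, ERK and PI3K to genes of growth and survival. Squamous carcinoma cells keep an epithelial program of desmosomes, tight junctions and keratins, which factors such as GRHL2, OVOL1 and the splicing regulator ESRP1 maintain and which the repressors ZEB1 and ZEB2 can turn off during epithelial-mesenchymal transition (EMT). Resistance to ERBB inhibitors in such cells is known to occur through other receptor kinases, through EMT or through changes in downstream signalling. Interferon-stimulated genes form a further program, driven by STAT and IRF factors at a DNA element called the ISRE.

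Reads on genes numbered from 16334937 to 23399259 per library, with a median of 18422982, and 16235 genes passed the filter on low counts. The range was 20156109 to 23399259 in FaDu and 16334937 to 16689855 in Cal27, so depth and line cannot be told apart. Unless stated otherwise, values per library are given as CPM, the reads of a gene scaled to the TMM-normalized library size, in replicate order, and effects as log2 fold changes of AfaR over parental cells. The difference between the lines is the FaDu log2 fold change minus that of Cal27, so a positive value means a higher response in FaDu. A gene was called at a Benjamini-Hochberg adjusted p under 0.05 from edgeR's quasi-likelihood test, over all genes, with a log2 value over 1 in size. In a simulation of this design, 81% of 200 genes with a log2 difference of 2 reached an adjusted p under 0.05. For a difference of 1 the share was 34%. The sign had to be right, but the fold limit was not applied there. The changed genes were drawn from those with a mean over 20 reads per library. Simulated spread between libraries depended on expression level alone, with no part particular to a gene. Only 200 of the 16235 genes were changed, so these shares need not hold for the data. The AfaR libraries carried the genes of their own line. The 8 genes expressed in FaDu and not in Cal27 parental cells summed to 207 and 245 CPM in FaDu AfaR and to 2.69 and 2.17 CPM in Cal27 AfaR. Of the 26 genes expressed in Cal27 and not in FaDu parental cells, 20 were at 5 CPM or more in each Cal27 AfaR library and 2 in each FaDu AfaR library, namely ALDH1L2 and SDR42E1. In CPM of the library's gene total, with no TMM scaling, the 10 markers of squamous epithelial cells summed to 7086 and 13907 CPM in FaDu AfaR, where the parental libraries had 6033 and 10026, and to 1529 and 1277 CPM in Cal27 AfaR, where the parental libraries had 5886 and 4915.

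The response was larger in Cal27. In FaDu AfaR 997 genes were called higher (6.14% of genes tested) and 143 lower (0.881%), together 1140 genes (7.02%). In Cal27 AfaR 1807 genes were called higher (11.1%) and 1310 lower (8.07%), together 3117 genes (19.2%). The difference between the lines was itself called in 2032 genes (12.5%), of which 1248 were positive (7.69%) and 784 negative (4.83%). Genes called in both lines in the same direction numbered 377 higher (2.32%) and 43 lower (0.265%). The higher ones were 37.8% of the FaDu and 20.9% of the Cal27 rises, and the lower ones 30.1% of the FaDu and 3.28% of the Cal27 falls. Opposite calls were given to 72 genes higher in FaDu and lower in Cal27 (0.443%) and to 20 genes lower in FaDu and higher in Cal27 (0.123%). A change was counted as belonging to 1 line where that line's effect and the difference were called and the other line's adjusted p was at least 0.05. This gave 189 rises (1.16%) and 28 falls (0.172%) in FaDu, and 500 rises (3.08%) and 668 falls (4.11%) in Cal27. A further 411 genes called in FaDu and 1437 called in Cal27 met neither definition. The FaDu counts rested on few libraries: 333 genes were called in FaDu without parental replicate 1, 684 without parental replicate 2 and 624 without AfaR replicate 2.

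**Figure D1:**
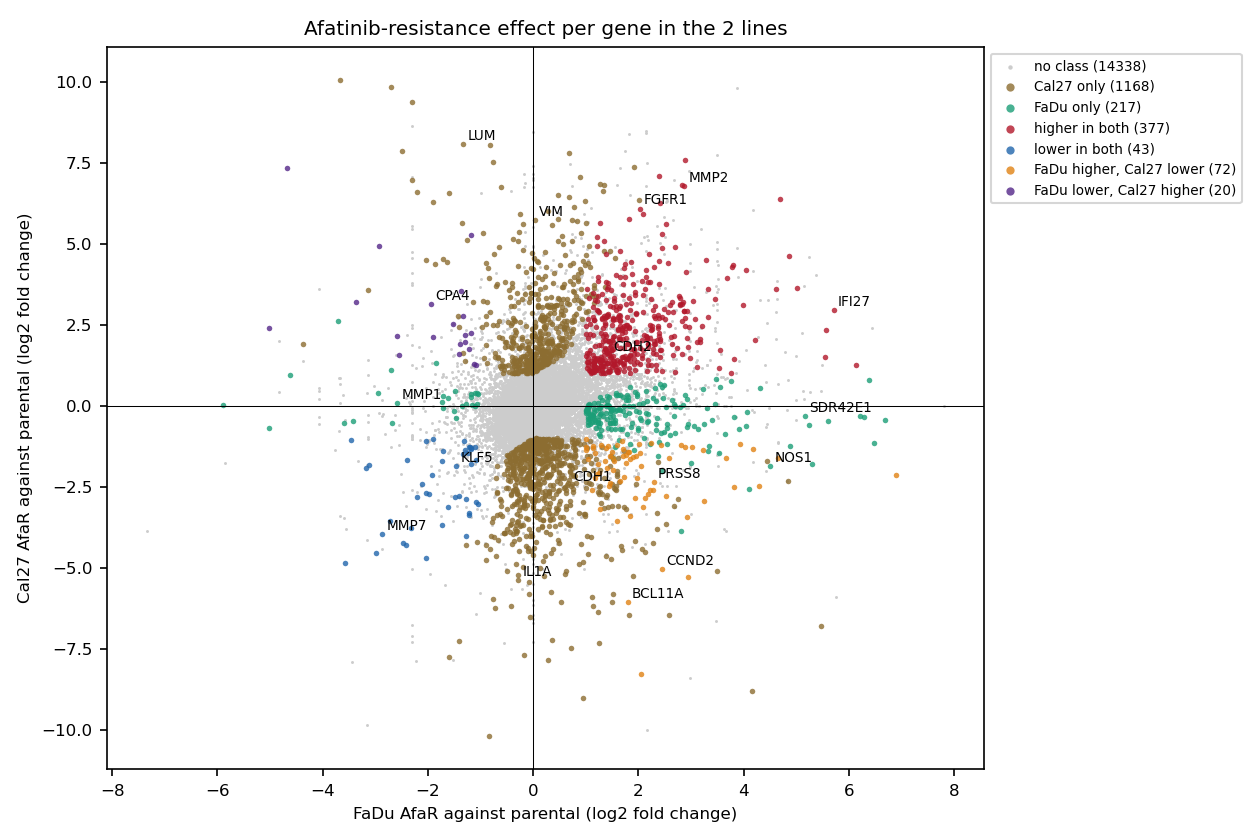
Log2 fold change of AfaR over parental cells in FaDu (x axis) against Cal27 (y axis) for every gene tested, coloured by class. Genes called in both lines in the same direction lie in the upper right (377) and lower left (43), those of opposite direction in the other quadrants (72 and 20), and the Cal27-only genes (500 and 668) spread along the y axis.

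Over the 10696 genes whose mean reached 5 CPM, the effects of the lines had a Pearson r of 0.331 and a Spearman rho of 0.366 across genes, which are not independent replicates. The fold changes of single AfaR and parental libraries gave r from 0.209 to 0.399. Of the 997 genes called higher in FaDu AfaR, 71.3% had a positive log2 fold change in Cal27, where 48.8% of all genes did. Of the 143 genes called lower in FaDu, 35% were positive in Cal27. Among the 377 genes higher in both lines the rise was the larger one in Cal27 in 241, and 71 had a called difference, 62 of them with the larger rise in Cal27. Of the 43 lower in both, 10 had a called difference, 9 with the larger fall in Cal27.

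Among genes that rose in both lines, HMGN5, a nucleosome-binding protein (ENSG00000198157, chromosome X, 81113701 to 81201942, reverse strand), went from 0.251 and 0.591 CPM to 12.9 and 14.6 CPM in FaDu and from 0.357 and 0.12 to 2.8 and 3.29 CPM in Cal27. Both AfaR libraries were above both parental ones in each line, with log2 fold changes of 5.02 (standard error 0.41, adjusted p = 0.000143) and 3.63 (0.485, adjusted p = 0.000235) by edgeR's quasi-likelihood test. ILDR2, an immunoglobulin-like domain receptor, rose from 0.201 and 0.0537 to 1.78 and 1.93 CPM in FaDu and from 0.893 and 0.719 to 15.6 and 16.1 CPM in Cal27. The heparan sulfate sulfatase SULF1 rose from 0.301 and 0.161 to 2.72 and 8.92 CPM in FaDu and from 0.0595 and 0.18 to 2.08 and 0.939 CPM in Cal27, where its call was lost without parental replicate 1 or AfaR replicate 1, at 3.03 and 2.91. KCNIP3, a calcium-binding transcriptional repressor, rested in FaDu on 1 read in the parental libraries and 20 in the AfaR libraries, a ratio of 19.4 with a 95% exact interval from 3.11 to 805, and lost that call without any of 5 single libraries, at values from 2.66 to 6.09. Its Cal27 values were higher, 0.417 and 0.899 CPM in parental and 14.2 and 12.7 CPM in AfaR cells. None of these 4 genes had a called difference between the lines. The intervals on read ratios cover counting error only.

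Falls in both lines included the matrix protease matrilysin, MMP7 (ENSG00000137673, chromosome 11, 102520508 to 102530753, reverse strand), which was at 4.47 and 4.89 CPM in FaDu parental and 0.495 and 0.754 CPM in FaDu AfaR. In Cal27 it was at 30.4 and 63.3 CPM in parental and 3.29 and 2.76 CPM in AfaR cells. The parental and AfaR libraries did not overlap in either line, and the log2 fold changes were -2.87 and -3.95. IL1RL1, of the IL1 receptor family, fell from 14.1 and 8 to 1.98 and 0.838 CPM in FaDu, and in Cal27 71 parental reads stood against 3 AfaR reads, a ratio of 23.6 (7.77 to 117). SERPINB2, an inhibitor of plasminogen activators, had 34 reads in FaDu parental and 3 in FaDu AfaR libraries (ratio 11.7, 3.67 to 59.4) and fell from 16.3 and 11.9 to 0.165 and 0.821 CPM in Cal27. The gel-forming mucin MUC2 fell from 0.803 and 1.5 to 0.0495 and 0.335 CPM in FaDu and from 5.42 and 6.53 to 0.329 and 0.293 CPM in Cal27. Without FaDu parental replicate 1 the FaDu falls of IL1RL1 (-2.52), SERPINB2 (-2.72) and MUC2 (-2.86) were not called, and those of SERPINB2 and MUC2 also not without 2 other FaDu libraries each, at values from -7.00 to -1.76. KLF5, a zinc finger factor of epithelial cells (ENSG00000102554, chromosome 13, 73054976 to 73077542, forward strand), fell by like amounts, from 121 and 108 to 40.2 and 42.7 CPM in FaDu and from 83 and 91.3 to 24.6 and 23.8 CPM in Cal27. Its log2 fold changes were -1.46 and -1.85, and their difference was 0.39 (standard error 0.17, adjusted p = 0.143).

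Opposite changes included that of CCND2, which encodes a D-type cyclin of G1 phase (ENSG00000118971, chromosome 12, 4273772 to 4305350, forward strand). It was at 73.1 and 94.7 CPM in FaDu parental and 397 and 515 CPM in FaDu AfaR cells. In Cal27 it went from 285 and 168 CPM in the parental to 7.08 and 6.69 CPM in the AfaR libraries. The log2 fold changes of CCND2 were 2.44 in FaDu and -5.04 in Cal27, a difference of 7.48 (standard error 0.367, adjusted p = 2.78e-06). PRSS8, a membrane-anchored serine protease of epithelia, rose from 6.17 and 12.4 to 35.3 and 55 CPM in FaDu and fell from 97.9 and 121 to 22.4 and 20.7 CPM in Cal27. Another transmembrane serine protease, TMPRSS3, had 0.1 and 0.107 CPM in FaDu parental, 1.19 and 3.06 in FaDu AfaR, 5.48 and 14.9 in Cal27 parental and 2.03 and 1.58 in Cal27 AfaR libraries. FAM83F followed the same course, from 0.351 and 0.161 to 1.58 and 1.47 CPM in FaDu and from 20.4 and 16.1 to 3.24 and 2.05 CPM in Cal27. Without FaDu parental replicate 2 the FaDu rises of TMPRSS3 (4.32) and FAM83F (2.09) were not called, and without replicate 1 that of TMPRSS3 (4.24) was not.

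In the other direction, the carboxypeptidase gene CPA4 (ENSG00000128510, chromosome 7, 130293134 to 130324180, forward strand) fell from 9.14 and 9.72 to 2.33 and 2.56 CPM in FaDu and rose from 7.5 and 4.43 to 56.2 and 49.8 CPM in Cal27. Its log2 fold changes were -1.94 and 3.15, with a difference of -5.09 (adjusted p = 9.02e-06). ALPP, placental alkaline phosphatase, was at 4.72 and 29.5 CPM in FaDu parental and 1.44 and 1.84 CPM in FaDu AfaR libraries, and at 0.953 and 1.14 and then 10 and 9.5 CPM in Cal27. ALPP has near-identical paralogs, and how reads that map to several genes were counted is not given in the sources used here. The axon guidance gene SEMA5A had 15 reads in FaDu parental and 2 in FaDu AfaR libraries (ratio 7.72, 1.80 to 69.6) and rose from 0.298 and 0.3 to 8.17 and 10.3 CPM in Cal27. SARDH, a mitochondrial sarcosine dehydrogenase, had 17 and 3 reads in FaDu (ratio 5.83, 1.69 to 31.1) and rose from 4.11 and 6.23 to 22.3 and 23.7 CPM in Cal27. The FaDu falls of SEMA5A and SARDH were each not called when any 1 of the 4 FaDu libraries was left out, at values from -3.39 to -2.32 and from -3.00 to -2.05.

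Among changes confined by the definition above to FaDu, the neuronal nitric oxide synthase NOS1 (ENSG00000089250, chromosome 12, 117208142 to 117452170, reverse strand) rose from 0.703 and 0.376 to 11.6 and 13.3 CPM, a log2 fold change of 4.50, while the 4 Cal27 libraries held from 0 to 3 reads each. Its called difference of 6.35 was lost without Cal27 parental replicate 2, at 5.43. SDR42E1, a short-chain dehydrogenase gene, rose from 0.1 and 0.269 to 7.38 and 6.07 CPM in FaDu, while Cal27 had 36.3 and 31.7 in parental and 25 and 29.7 CPM in AfaR cells. The FaDu AfaR level was thus still below that of Cal27 parental cells. WFDC2, a secreted protein of mucosal glands, showed the same order, with 1.15 and 0.269 and 5.1 and 12.9 CPM in FaDu parental and AfaR and 59 and 150 and 67.2 and 46.6 CPM in the Cal27 groups, and its FaDu rise was not called without FaDu parental replicate 2, at 2.96, while without Cal27 parental replicate 1 a Cal27 fall of -1.41 was called. APOBEC3G, a cytidine deaminase of antiviral defence, rested on 1 read in FaDu parental and 20 in FaDu AfaR libraries (ratio 19.4, 3.11 to 805), and its FaDu call was lost without either parental library or AfaR replicate 2, at values from 3.00 to 6.10, and its difference without parental replicate 2 (3.33). The interstitial collagenase MMP1 fell in FaDu from 37.7 and 45.6 to 7.77 and 6.12 CPM, with 1.73 and 1.62 and 2.08 and 1.47 CPM in Cal27. NEURL1, an E3 ubiquitin ligase, fell from 9.69 and 8.7 to 0.94 and 0.587 CPM in FaDu and was at 2.44 and 2.88 and 1.26 and 2.41 CPM in Cal27. CYP26B1, which degrades retinoic acid, fell from 20 and 30.7 to 5.44 and 8.63 CPM in FaDu. In Cal27 it had 0.417 and 0.539 CPM in parental and 0.823 and 1.58 CPM in AfaR cells, a log2 value of 1.31 that DESeq2 called, at an adjusted p of 0.0365. The long non-coding RNA LINC00958 had 64 reads in FaDu parental and 2 in FaDu AfaR libraries (ratio 32.9, 8.75 to 278) against 64.4 and 53 and 35.5 and 37.1 CPM in Cal27.

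**Figure D2:**
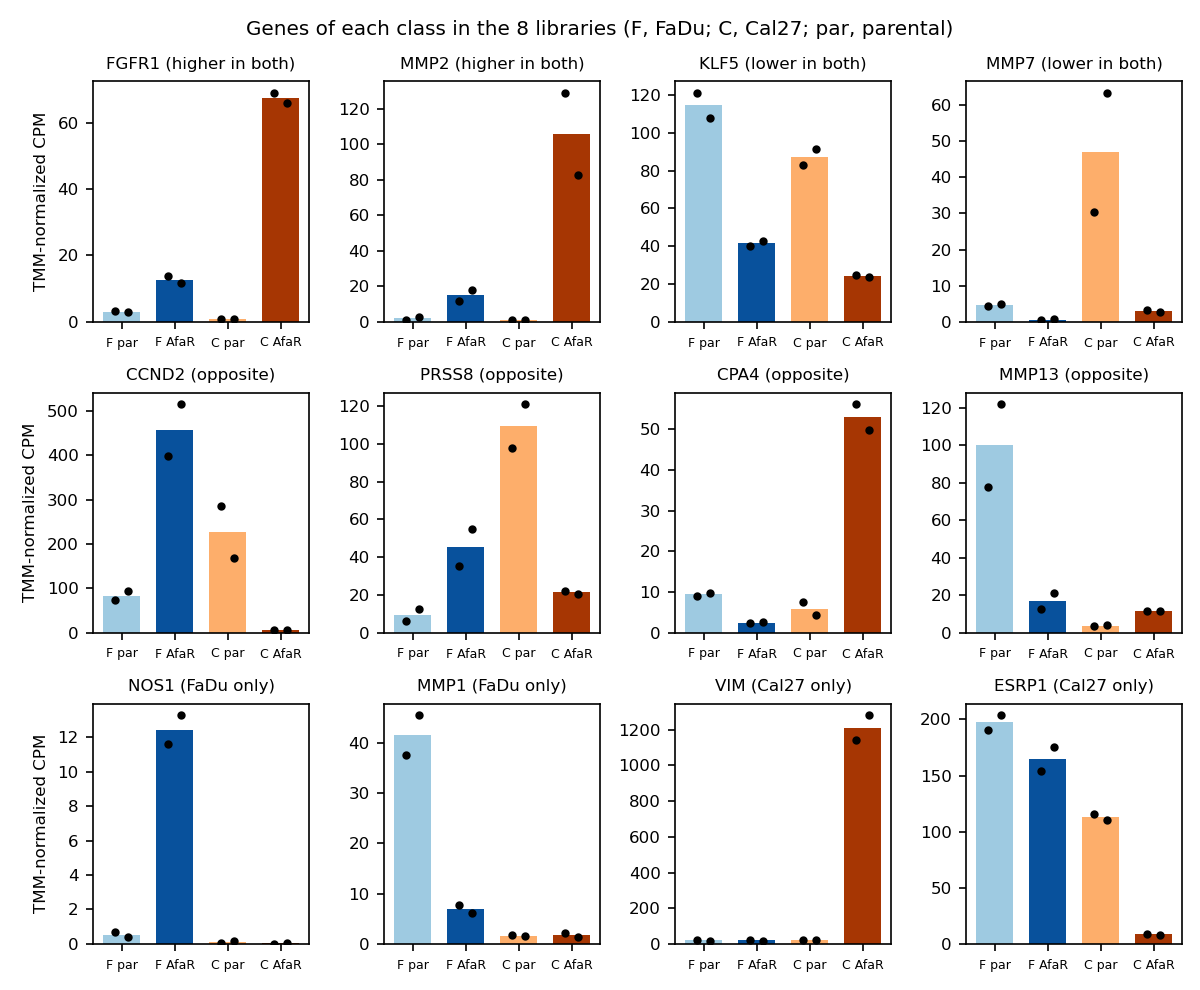
Expression of 12 genes in each library, in TMM-normalized CPM on a linear axis that starts at 0, with bars for the group means and points for the 2 libraries of each group. FGFR1 and MMP2 rose and KLF5 and MMP7 fell in both lines, CCND2 and PRSS8 rose in FaDu and fell in Cal27, CPA4 and MMP13 did the reverse, NOS1 and MMP1 changed in FaDu, and VIM and ESRP1 changed in Cal27.

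Cal27 alone raised the intermediate filament gene VIM (ENSG00000026025, chromosome 10, 17228259 to 17237593, forward strand), from 23.5 and 22.4 CPM to 1141 and 1283 CPM. In FaDu the same gene was at 21.4 and 17.6 CPM in parental and 22.2 and 17.9 CPM in AfaR cells, so that the 2 FaDu groups overlapped. The log2 fold changes were 0.04 and 5.72, with a difference of -5.68 (standard error 0.219, adjusted p = 1.04e-06). LUM, the matrix proteoglycan lumican, rose from 0.179 and 0.0599 to 43.6 and 24.5 CPM in Cal27. The neurotrophic factor GDNF had 0 reads in Cal27 parental and 246 in Cal27 AfaR libraries, at least 82.1-fold higher against a floor of 3 reads over the group. The prostaglandin receptor gene PTGFR likewise went from 0 to 213 reads, at least 71.1-fold higher, and the long non-coding RNA LINC01443 from 2 to 296 reads, a ratio of 148 (40.6 to 1230). FaDu libraries held at most 7 reads per group for LUM, GDNF, PTGFR and LINC01443. The called difference of GDNF was lost without FaDu parental replicate 2 and that of LINC01443 without any of 6 single libraries, where fitted values hang on reads near 0. The Cal27 falls were led by RHCG, an ammonium transporter of squamous mucosa, which went from 259 reads to 0, at least 86.3-fold lower. KRT6B, a keratin of activated squamous epithelium, fell from 49.5 and 83.4 to 0.11 and 0.469 CPM, the calprotectin subunit S100A8 from 28.4 and 92.3 to 0.384 and 0.411 CPM and the serine protease inhibitor SERPINA5 from 9.47 and 21.3 to 0.329 and 0.117 CPM. FaDu parental cells held 0.430 to 1.00 CPM of RHCG and at most 0.322 CPM of the other 3. Without FaDu AfaR replicate 2 the differences of RHCG, KRT6B, S100A8 and SERPINA5 were not called, at 7.38, 6.58, 2.67 and 6.91, and that of S100A8 was also lost without FaDu parental replicate 1 (6.55) or either Cal27 AfaR library (7.55 and 7.64).

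The genes were next grouped in 37 lists by function. The lists stand in the plot of list medians with the median log2 fold change of each in each line. Over all genes tested the median was 0.01 in FaDu and -0.01 in Cal27. The shares of all genes to set beside the list counts were 6.14% higher and 0.881% lower in FaDu. In Cal27 they were 11.1% higher and 8.07% lower, and for the difference 7.69% positive and 4.83% negative.

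**Figure D3:**
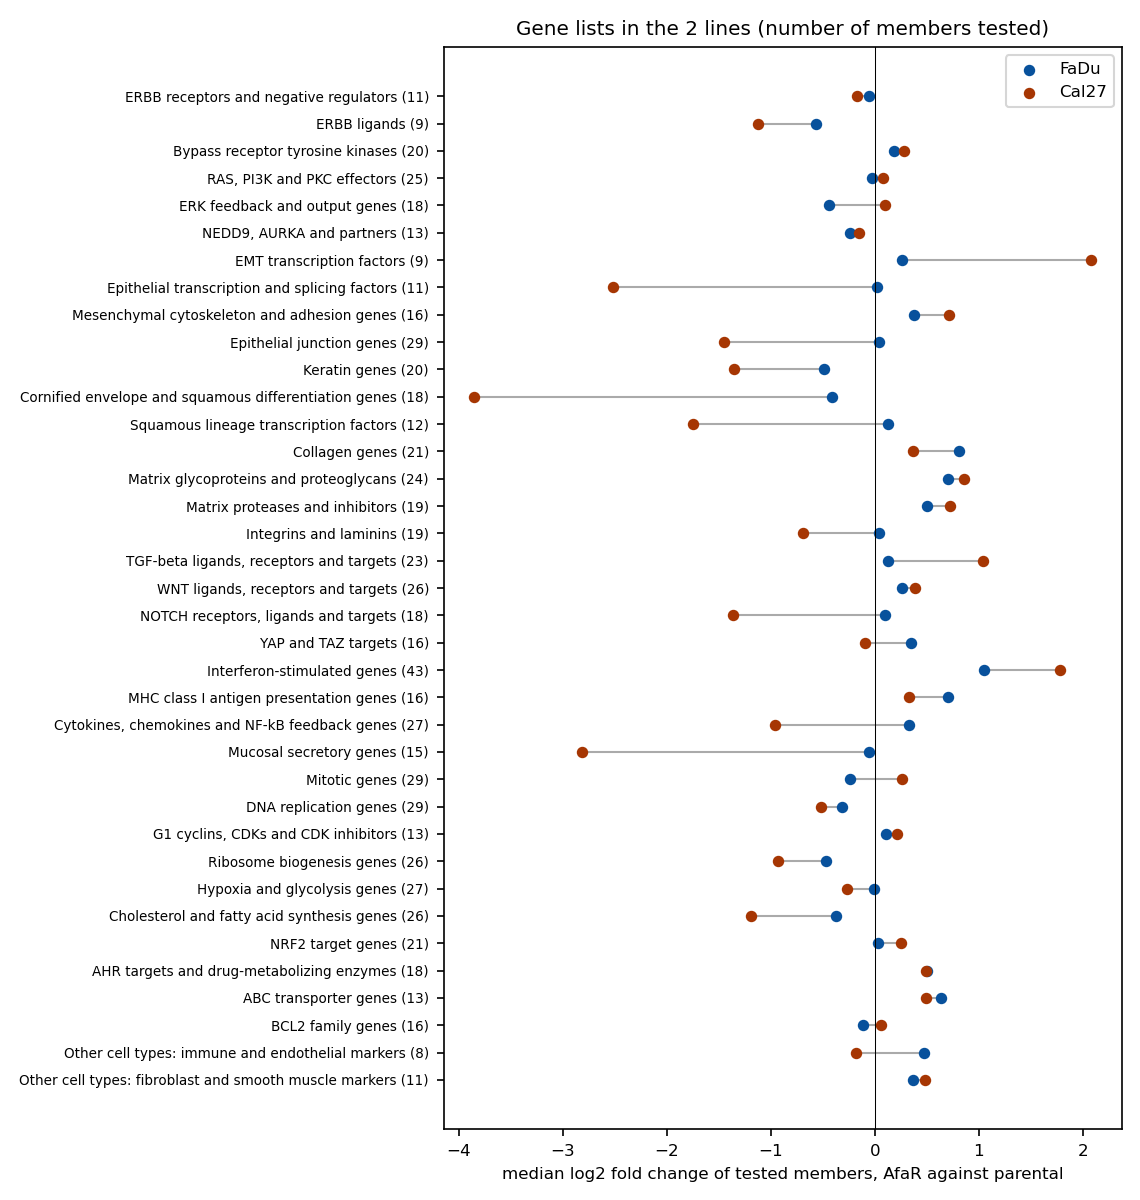
Median log2 fold change of AfaR over parental cells in FaDu and Cal27 for the tested members of each of 37 gene lists. The points of the lines lie far apart for the epithelial factors (0.02 and -2.52), the cornified envelope genes (-0.41 and -3.85) and the mucosal secretory genes (-0.06 and -2.82), and both lie to the right for the interferon-stimulated genes (1.05 and 1.78).

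Of 11 ERBB receptors and negative regulators, 1 was called higher in FaDu, 2 were called higher and 2 lower in Cal27, and 4 had a called positive difference. These differences numbered 2 without either FaDu parental library or Cal27 parental replicate 2 and 1 without Cal27 AfaR replicate 2, and the Cal27 falls numbered 1 without any of these 4 libraries. The Cal27 rises numbered 1 without its parental replicate 1. EGFR, the main receptor of the family, was at 565 and 521 CPM in FaDu parental and 663 and 712 CPM in FaDu AfaR cells, and at 1354 and 1321 and then 727 and 720 CPM in Cal27. The log2 values of EGFR, 0.34 and -0.89, were each under 1 in size, and their difference of 1.23 (standard error 0.158, adjusted p = 0.000539) was called. ERBB3, the kinase-poor partner of ERBB2, fell in Cal27 from 29.3 and 47.1 to 12.5 and 7.04 CPM and had 48.9 and 39.6 and 32.5 and 52.4 CPM in FaDu. Its difference of 1.90 was not called without FaDu parental replicate 2 (1.73) or Cal27 AfaR replicate 2 (1.56). LRIG1, which promotes the degradation of ERBB receptors, rose in both lines, from 1.31 and 1.83 to 9.55 and 12.7 CPM in FaDu and from 14.5 and 18 to 58.7 and 38.9 CPM in Cal27. Its difference of 1.25 was not called without any of 5 single libraries, at values from 0.99 to 1.47. ERBB2 had log2 values of -0.07 and -0.12 with a difference of 0.05 (standard error 0.186).

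Among 9 ERBB ligands, 4 were called lower in Cal27 (TGFA, AREG, HBEGF and NRG1) and 1 in FaDu (EREG), with 3 called positive differences and 1 negative. HBEGF, heparin-binding EGF, fell from 43.2 and 53 to 5.65 and 11 CPM in Cal27 and was at 6.83 and 6.77 and 11.3 and 9.26 CPM in FaDu, a difference of 3.13 (adjusted p = 0.000374). Amphiregulin, AREG, had lower values in the AfaR cells of both lines, 57.6 and 40.7 against 29 and 22.2 CPM in FaDu and 37.1 and 25.9 against 4.66 and 5.1 CPM in Cal27. Its FaDu log2 value of -0.94 missed the fold limit, and was called without FaDu parental replicate 2 (-1.18) or AfaR replicate 1 (-1.15), and the difference of 1.75 was called. Betacellulin, BTC, rose in Cal27 from 1.13 and 1.44 to 5.32 and 3.58 CPM, and its difference was not called without Cal27 AfaR replicate 1, at -1.73. The neuregulin NRG2 rose in both lines at levels under 3 CPM, from 0.351 and 1.07 to 2.28 and 2.18 CPM in FaDu, a call lost with DESeq2 (1.64) and without any of 7 single libraries, at values from 1.05 to 1.69.

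Of 20 other receptor tyrosine kinases, 4 rose in FaDu and 6 in Cal27, with 3 in both: FGFR1, INSR and ROR1. The FaDu count was 2 without parental replicate 1. The fibroblast growth factor receptor FGFR1 went from 3.36 and 2.9 to 13.9 and 11.6 CPM in FaDu and from 1.01 and 0.959 to 68.9 and 65.8 CPM in Cal27. Both AfaR libraries were above both parental ones in each line, and the rise was larger in Cal27, with log2 values of 2.02 and 6.09 and a difference of -4.06 (standard error 0.275, adjusted p = 1.2e-05). FGFR3 and FGFR4 fell in Cal27, FGFR3 from 27.8 and 36.5 to 10.9 and 6.57 CPM and FGFR4 from 14.6 and 11 to 4.17 and 4.87 CPM, and neither was called in FaDu. The FGFR3 difference was not called without Cal27 AfaR replicate 2, at 1.78. The insulin receptor gene INSR rose from 1.15 and 1.77 to 5 and 5.49 CPM in FaDu and from 1.91 and 4.55 to 28 and 22.6 CPM in Cal27, the FaDu call being lost without FaDu parental replicate 1, at 1.56. AXL, a receptor kinase linked to mesenchymal states, rose in Cal27 from 533 and 354 to 1305 and 1446 CPM and had 160 and 199 and 233 and 213 CPM in FaDu. MET, the hepatocyte growth factor receptor, had 248 and 205 and 256 and 244 CPM in FaDu and 496 and 555 and 366 and 389 CPM in Cal27, and its difference of 0.62 was under the fold limit.

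Of 25 RAS, PI3K and PKC effectors, 1 rose in FaDu, and 3 rose and 2 fell in Cal27. The Cal27 counts were near the shares over all genes, 11.1% higher and 8.07% lower. PRKCA, protein kinase C alpha, rose in Cal27 from 7.44 and 6.77 to 62.5 and 56.6 CPM and was at 19.1 and 15.6 and 19.9 and 19.2 CPM in FaDu, a difference of -2.89 (adjusted p = 2.13e-05). The PI3K catalytic subunit gene PIK3CD rose in Cal27 from 15 and 15.1 to 77 and 85.4 CPM, and the adaptor GAB2 fell there from 23.6 and 28.2 to 8.39 and 6.34 CPM, though its difference was not called without FaDu parental replicate 1, at 1.32. Of 18 feedback and output genes of ERK, 5 fell in FaDu (DUSP5, DUSP6, SPRY4, ETV4 and EGR1), while in Cal27 4 rose (SPRY2, ETV1, ETV5 and EPHA4) and 3 fell (ETV4, EGR1 and MYC). The FaDu count was 2 without AfaR replicate 2 and 3 without parental replicate 2, and the Cal27 falls numbered 5 without AfaR replicate 2. ETV4, an ETS factor induced by ERK, fell in both lines, from 33.7 and 40.8 to 18.9 and 10.6 CPM in FaDu and from 40.3 and 29.9 to 11.5 and 13.3 CPM in Cal27, with its FaDu call lost without FaDu parental replicate 2 (-1.20) or AfaR replicate 2 (-0.97). EGR1 was uneven between libraries of a group, with 128 and 719 CPM in FaDu parental, 61.3 and 32.6 in FaDu AfaR, 314 and 340 in Cal27 parental and 42.1 and 130 in Cal27 AfaR cells. Its FaDu call was lost without FaDu parental replicate 2 (-1.45) or AfaR replicate 2 (-2.77), and its Cal27 call with DESeq2 (-1.91) and without any of 3 Cal27 libraries, at values from -1.99 to -1.33. MYC fell in Cal27 from 431 and 375 to 83.8 and 105 CPM and had 257 and 325 and 194 and 233 CPM in FaDu, a called difference of 1.65. The ETS factor ETV1 rose in Cal27 from 2.2 and 2.22 to 12.1 and 15.2 CPM, and EPHA4, an ephrin receptor, from 3 to 296 reads, a ratio of 98.7 (33.5 to 482).

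The scaffold protein NEDD9 and the kinase AURKA head a list of 14 partners, of which 13 were tested. NEDD9 had 2.41 and 4.03 CPM in FaDu parental, 6.43 and 19.1 in FaDu AfaR, 7.5 and 16.8 in Cal27 parental and 7.57 and 6.98 in Cal27 AfaR cells. Its FaDu rise of 2.00 (standard error 0.514, adjusted p = 0.0278) and the difference of 2.73 were called, but AfaR replicate 2 stood well above replicate 1. Without it the FaDu value was 1.02 and the difference 1.76, neither of them called, and the FaDu call was likewise lost without FaDu parental replicate 1 (1.67), replicate 2 (2.40) or Cal27 AfaR replicate 2 (1.99). The difference was also not called without FaDu parental replicate 1, Cal27 parental replicate 2 or either Cal27 AfaR library, at values from 2.04 to 2.80. EFS, a scaffold of the same family, had log2 values of 0.85 in FaDu, not called, and -1.04 in Cal27, with a called difference of 1.89. The Cal27 fall of EFS was not called without parental replicate 2 (-0.68) or AfaR replicate 1 (-0.63). AURKA had 186 and 181 and 125 and 157 CPM in FaDu and 184 and 166 and 153 and 218 CPM in Cal27, with no call in either line or in the difference. The AURKA activator TPX2 had log2 values of -0.24 and 0.53, and the G2 checkpoint kinase WEE1 of -0.29 and -0.35, none of them called.

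Many epithelial genes fell in Cal27, and few were called in FaDu. Of 29 junction genes, 18 fell in Cal27, 1 rose in FaDu and 19 had a called positive difference, with medians of 0.04 in FaDu and -1.45 in Cal27. In FaDu 0 were called lower by edgeR or DESeq2 and 3 were lower at an unadjusted p under 0.05. E-cadherin, CDH1 (ENSG00000039068, chromosome 16, 68737225 to 68835548, forward strand), fell in Cal27 from 357 and 418 to 78.1 and 64.5 CPM. In FaDu it was at 208 and 229 CPM in parental and 306 and 396 CPM in AfaR cells, higher in both AfaR libraries by a log2 value of 0.69 (adjusted p = 0.0169) that was under the fold limit. The difference was 3.13 (standard error 0.224, adjusted p = 1.49e-05). DSG3, a desmosomal cadherin, fell from 43.7 and 41.3 to 4.55 and 1.88 CPM in Cal27, and PKP1, which links desmosomal cadherins to keratin filaments, from 16.7 and 11.4 to 1.15 and 0.763 CPM. In FaDu DSG3 was at 44.5 and 50.3 and 51.1 and 65.7 CPM and PKP1 at 108 and 121 and 57.3 and 126 CPM. The junction gene called in opposite directions was CGN, cingulin of tight junctions, with log2 values of 1.17 and -1.45. When single libraries were left out, 17 to 19 junction genes were called lower in Cal27, and the FaDu rises numbered 0 without parental replicate 1 and 2 without AfaR replicate 1.

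RAB25, an epithelial GTPase of apical recycling, had the largest Cal27 fall of the junction list, from 21.6 and 29.7 to 1.97 and 1.41 CPM, with 78.2 and 65.7 and 67.4 and 73.3 CPM in FaDu. By the difference between the lines DSG3 led the list, at 4.01, before RAB25 at 3.88 and PKP1 at 3.54. ZEB factors bind E-box elements. The 250 bases before the RAB25 start in RefSeq (GRCh38.p14, chr1:156060910-156061159, forward strand) are shown because of the Cal27 fall of RAB25. A match to the E-box letters CACCTG is in capitals.
RAB25: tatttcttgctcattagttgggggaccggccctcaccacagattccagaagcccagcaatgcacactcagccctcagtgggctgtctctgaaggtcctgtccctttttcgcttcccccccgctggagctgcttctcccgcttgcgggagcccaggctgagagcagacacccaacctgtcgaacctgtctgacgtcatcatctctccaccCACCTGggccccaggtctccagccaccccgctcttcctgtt
The match begins 41 bases before the start. In windows from 250 bases before to 50 after a gene's start, CACCTG or its other strand CAGGTG was found for 24.1% of 27305 genes and for 12 of the 20 junction genes with a window. It was found for 7 of the 12 with a called difference and for 5 of the other 8, so it did not separate them. RAB25 had 2 matches, while DSG3 and PKP1 had 0 each. A match of letters is no evidence of binding.

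Of 11 epithelial transcription and splicing factors, 9 fell in Cal27, among them GRHL1, GRHL2, OVOL1, OVOL2, ESRP1 and ESRP2. In FaDu 1 rose (KLF4) and 1 fell (KLF5), but without FaDu AfaR replicate 1 3 were called lower there, among them OVOL1 (-1.18) and GRHL1 (-1.15). ESRP1, which directs epithelial splicing, fell from 116 and 110 to 9.22 and 8.21 CPM in Cal27 and was at 191 and 204 and 154 and 175 CPM in FaDu, a difference of 3.44 (standard error 0.177, adjusted p = 3.53e-06). OVOL1 fell from 9.83 and 8.51 to 0.439 and 0.528 CPM and GRHL1 from 15.9 and 23.2 to 1.1 and 1.29 CPM in Cal27. Of 9 EMT transcription factors, 5 rose in Cal27, of which 1 in both lines, while SNAI1 fell in Cal27. ZEB1, a repressor of epithelial genes, went from 0.298 and 0.479 to 15.7 and 16.5 CPM in Cal27 and was under 1 CPM in all 4 FaDu libraries. ZEB2 went from 1.85 and 1.68 to 34.4 and 26.5 CPM in Cal27 and FOXC2 from 0.179 and 0.24 to 1.59 and 2.7 CPM, but the FOXC2 difference was not called by DESeq2 (-3.14) or without any of 7 single libraries, at values from -3.40 to -2.30. TWIST1, a basic helix-loop-helix factor, rose in both lines, from 2.56 and 3.92 to 8.46 and 6.83 CPM in FaDu and from 3.1 and 3.36 to 55 and 47.5 CPM in Cal27. Its rise was larger in Cal27, by -2.75 as a log2 difference, and without FaDu parental replicate 1 its FaDu value of 0.96 was under the fold limit.

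**Figure D4:**
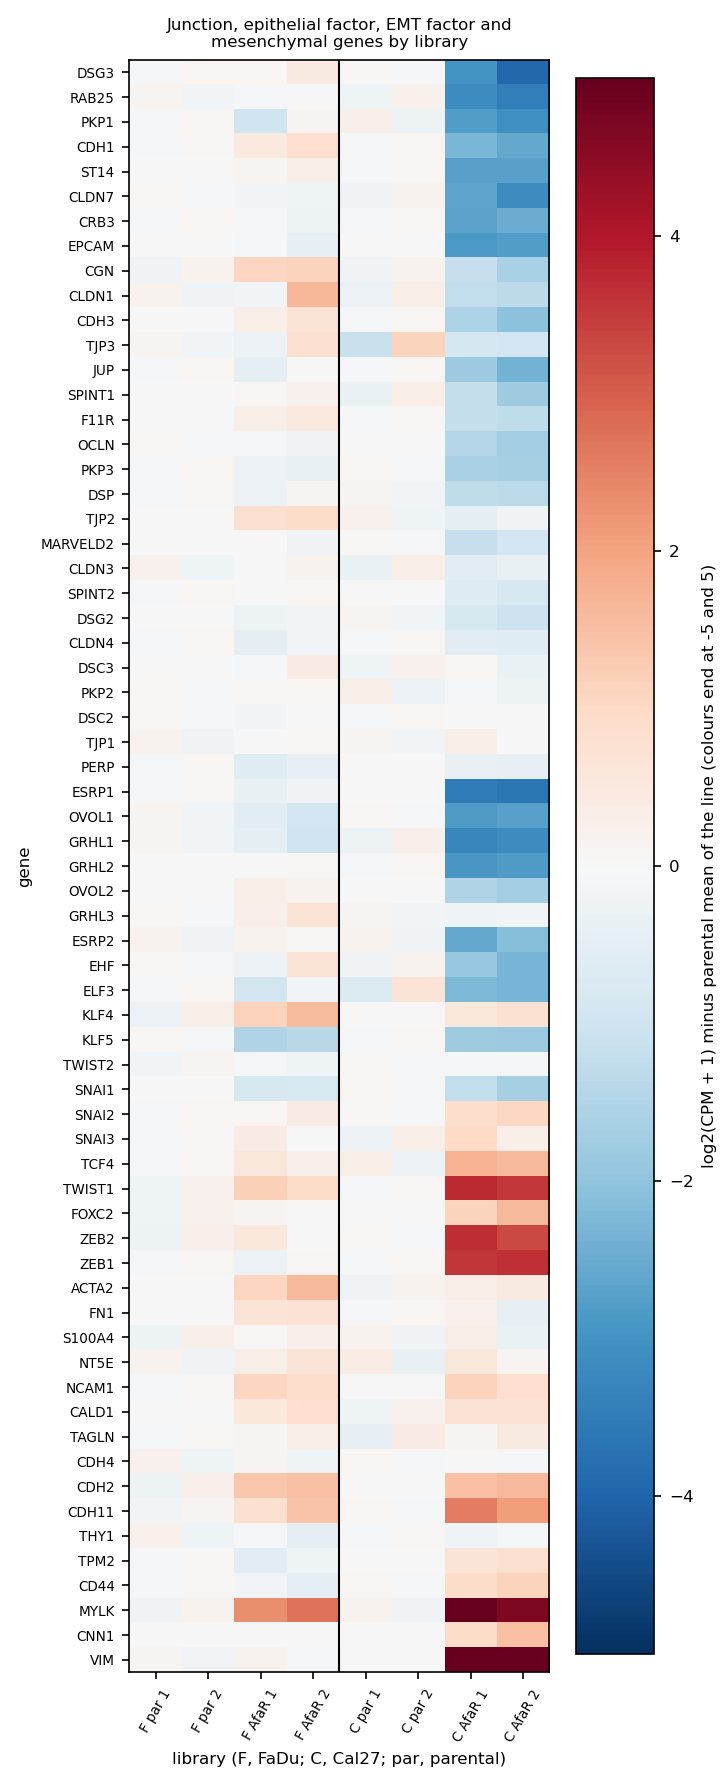
Log2(CPM + 1) of junction genes, epithelial factors, EMT factors and mesenchymal genes in each of the 8 libraries, as the difference from the mean of the parental libraries of the same line. Most junction genes and epithelial factors are lower in both Cal27 AfaR libraries (18 of 29 and 9 of 11 called lower), while in FaDu AfaR 1 and 1 of them were called higher and 0 and 1 lower.

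Of 16 mesenchymal cytoskeleton and adhesion genes, 5 rose in FaDu and 7 in Cal27, with 4 in both: CDH2, CDH11, MYLK and NCAM1. N-cadherin, CDH2, rose from 14.7 and 21.5 to 48.3 and 50.2 CPM in FaDu and from 57.3 and 55.7 to 161 and 174 CPM in Cal27. These were rises of 1.45 and 1.57, with a difference of -0.12 whose standard error was 0.225. CDH2 and CDH1 were thus both higher in the FaDu AfaR libraries than in the FaDu parental ones, while in Cal27 CDH2 rose and CDH1 fell. Myosin light chain kinase, MYLK, rose from 5.72 and 7.57 to 36.8 and 49 CPM in FaDu and from 15.8 and 12.2 to 465 and 377 CPM in Cal27. CDH11 rose from 0.301 and 0.591 to 1.53 and 2.85 CPM in FaDu and from 2.44 and 2.04 to 17.9 and 12.9 CPM in Cal27, with a FaDu call that was lost without FaDu parental replicate 1 (1.89) or AfaR replicate 2 (1.79). The adhesion receptor CD44 rose in Cal27 from 1576 and 1377 to 2807 and 3192 CPM and had 276 and 304 and 260 and 212 CPM in FaDu, and its Cal27 value was 0.92, under the fold limit, without parental or AfaR replicate 2. The count of FaDu rises, and that of rises in both lines, was 2 without FaDu parental replicate 1.

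Of 20 keratins, 9 fell in Cal27 and 5 in FaDu, with KRT18 in both, and 8 had a called positive difference. The FaDu falls numbered 3 without parental replicate 1 and 2 without parental replicate 2. KRT14, a keratin of basal cells, was at 278 and 115 CPM in Cal27 parental and 0.932 and 1.64 CPM in Cal27 AfaR cells, and in FaDu at 119 and 329 and 29.7 and 139 CPM, where the groups overlapped and a fall of -2.90 was called without AfaR replicate 2. The simple keratin KRT18 fell from 2333 and 2940 to 921 and 1322 CPM in FaDu and from 1175 and 935 to 365 and 402 CPM in Cal27, but its FaDu fall was at the fold limit and not called without AfaR replicate 1. KRT75 had a called difference of 6.48 that rested on 45 reads in Cal27 parental and 2 in Cal27 AfaR libraries and was lost without any of 6 single libraries, at values from 2.95 to 9.77. Of 18 cornified envelope and squamous differentiation genes tested, 13 fell and 1 rose in Cal27, and 4 fell in FaDu, 3 of these in both lines. Without FaDu parental replicate 1 a single member was called lower in FaDu. The calprotectin subunit S100A9 fell in Cal27 from 93.2 and 297 to 3.73 and 2.05 CPM and was at 2.21 and 2.04 and 2.57 and 3.52 CPM in FaDu. Sciellin, SCEL, of the cornified envelope fell in both, from 2.46 and 1.72 to 0.495 and 0.335 CPM in FaDu and from 9.83 and 12.8 to 0.713 and 0.939 CPM in Cal27, the FaDu call being lost without FaDu parental replicate 1, at -2.05. The kallikrein KLK10 fell in FaDu from 207 and 176 to 19.1 and 78.1 CPM and in Cal27 from 4.17 and 9.41 to 1.54 and 0.469 CPM, and lost the FaDu call with DESeq2 (-1.99) or without either FaDu parental library (-1.86 and -2.10), and the Cal27 call without any of 3 Cal27 libraries, at values from -3.83 to -2.04. Members of the keratin and kallikrein clusters share sequence, and their counts may be split between paralogs.

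Among 12 squamous lineage transcription factors, 8 fell in Cal27 and 1 rose there (SOX2, not called without parental or AfaR replicate 1), 1 rose in FaDu, and 7 had a called positive difference. BCL11A, a zinc finger repressor, rose in FaDu from 1.25 and 1.45 to 4.45 and 4.94 CPM and fell in Cal27 from 4.59 and 11.3 to 0.11 and 0.117 CPM, a difference of 7.85 (standard error 0.752, adjusted p = 8.47e-05). Its FaDu call was lost without either FaDu parental library (1.69 and 1.89) or AfaR replicate 2 (1.73). TRIM29, a partner of the p63 program, fell in Cal27 from 80.6 and 89.2 to 7.68 and 5.46 CPM and was at 138 and 168 and 182 and 315 CPM in FaDu. TP63 itself, the master regulator of squamous cells, had a log2 value of -3.43 in Cal27 and a called difference of 3.50. ZNF750, a p63 target in differentiation, fell in Cal27 from 1.07 and 2.82 to 0.165 and 0.0587 CPM, and its difference was not called without Cal27 AfaR replicate 2, at 3.45.

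Of 21 collagens, 7 rose in FaDu and 7 in Cal27, with 4 in both (COL5A1, COL6A1, COL6A2 and COL8A1), and 2 fell in Cal27. The type VI collagen chain COL6A2 rose from 6.48 and 6.02 to 26.8 and 35.5 CPM in FaDu and from 15.1 and 22.1 to 165 and 151 CPM in Cal27. COL5A1 rose from 2.01 and 3.17 to 5.94 and 13.5 CPM in FaDu and from 64.6 and 94.8 to 918 and 782 CPM in Cal27, with a FaDu call that was lost without FaDu parental replicate 1 (1.63) or AfaR replicate 2 (1.22). The basement membrane chains COL4A1, COL4A2 and COL4A6 rose in FaDu alone, with called differences of 1.51, 1.34 and 1.72. COL17A1, the hemidesmosomal collagen, fell in Cal27 from 634 and 398 to 52.4 and 26.2 CPM and was at 243 and 275 and 302 and 388 CPM in FaDu. COL1A1, the fibrillar chain typical of fibroblasts, rose in Cal27 from 26 and 36.4 to 270 and 276 CPM, and its FaDu log2 value of 0.81 was under the fold limit, and 1.10 and called without FaDu parental replicate 2. COL6A3 in Cal27 went from 1 to 127 reads, a ratio of 127 (22.4 to 5060), and COL11A1 from 5 reads to 0, at least 1.67-fold lower. The COL6A3 difference was lost without FaDu parental replicate 1 (-8.58), and the Cal27 fall and the difference of COL11A1 with DESeq2 and whichever single library was left out, at differences from 5.31 to 5.87. Between 4 and 10 collagens were called higher in FaDu when single libraries were left out, with 4 without parental replicate 1, 5 without AfaR replicate 2 and 10 without parental replicate 2 or AfaR replicate 1. Rises in both lines then numbered 2 without parental replicate 1 or AfaR replicate 2.

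Of 24 matrix glycoproteins and proteoglycans, 5 rose and 1 fell in FaDu, and 11 rose and 1 fell in Cal27, with FBN2 and FBLN5 higher in both. Without FaDu AfaR replicate 1 8 rose in FaDu and 4 in both, without Cal27 AfaR replicate 2 1 rose in both, and without FaDu AfaR replicate 2 0 fell in FaDu. The Cal27 falls numbered 2 without any of 4 single libraries. Fibrillin 1, FBN1, rose in Cal27 from 1.31 and 1.26 to 59.5 and 63.4 CPM, and the growth factor binding protein IGFBP5 from 2.32 and 2.28 to 80.1 and 37.3 CPM. In FaDu FBN1 was at 0.904 and 0.913 and 0.643 and 1.63 CPM and IGFBP5 at 1.15 and 0.967 and 0.396 and 0.838 CPM. The elastic fibre gene FBLN5 rose from 1.81 and 3.12 to 9.4 and 16.5 CPM in FaDu and from 0.476 and 0.779 to 2.8 and 2.87 CPM in Cal27. FBN2 rose from 17.1 and 35.6 to 67.3 and 76.2 CPM in FaDu and from 16.3 and 16.6 to 30.6 and 37.1 CPM in Cal27, a Cal27 call that was lost without parental replicate 1 (1.02) or AfaR replicate 2 (0.89). SPARC, a collagen-binding protein, was called lower in FaDu (-1.33) and higher in Cal27 (2.77).

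Of 19 matrix proteases and inhibitors, 8 rose and 4 fell in FaDu, and 9 rose and 3 fell in Cal27, with 5 higher and 2 lower in both. The FaDu rises numbered 4 without AfaR replicate 2, and the shared rises 3 without parental replicate 1. The gelatinase MMP2 rose from 1.31 and 2.79 to 11.6 and 18.2 CPM in FaDu and from 0.953 and 0.959 to 129 and 83 CPM in Cal27, by log2 values of 2.87 and 6.78, a called difference of -3.91. The collagenase MMP13 went in opposite directions, from 78 and 122 to 12.7 and 21.4 CPM in FaDu and from 3.69 and 4.08 to 11.5 and 11.7 CPM in Cal27. Its difference was -4.12 (standard error 0.389, adjusted p = 7.94e-05). MMP28 fell in Cal27 from 3.45 and 3.06 to 0.384 and 0.176 CPM, and its difference was not called without Cal27 AfaR replicate 2, at 3.19. Of 19 integrins and laminins, none was called in FaDu by edgeR and 1 higher by DESeq2, with 7 at an unadjusted p under 0.05, and 8 fell and 4 rose in Cal27. Without Cal27 AfaR replicate 1 2 rose in Cal27, and 1 was called higher in FaDu without FaDu parental replicate 2 or either Cal27 parental library and 1 lower without FaDu AfaR replicate 2. ITGB4, the hemidesmosomal integrin, fell in Cal27 from 642 and 464 to 168 and 98.3 CPM and was at 638 and 638 and 633 and 753 CPM in FaDu. LAMA3, of its ligand laminin, fell in Cal27 from 122 and 89.7 to 28 and 21.2 CPM. ITGB6, an epithelial integrin that activates TGF-beta, fell from 52.8 and 73.7 to 19.1 and 16.8 CPM in Cal27 and had a FaDu log2 value of 0.85, with a called difference of 2.67. The fibronectin receptor chains ITGA5 and ITGB1 rose in Cal27, by 1.98 and 1.01.

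Of 23 ligands, receptors and targets of TGF-beta, 12 rose and 1 fell in Cal27, while 1 rose and 2 fell in FaDu. The FaDu falls numbered 0 without parental replicate 2 or with ERCC scaling and 1 with DESeq2 or without any of 5 other libraries, and the Cal27 falls 2 without its parental replicate 1. TGFB1 rose in Cal27 from 39.2 and 36.3 to 178 and 163 CPM and was at 79.7 and 91.2 and 98.7 and 69 CPM in FaDu, a difference of -2.20 (adjusted p = 0.000168). TGFB2 rose in both lines, from 5.27 and 5 to 9.55 and 20.2 CPM in FaDu and from 89.4 and 105 to 465 and 394 CPM in Cal27, with its FaDu call lost without either parental library (1.58 and 1.49) or AfaR replicate 2 (0.91). The co-receptor TGFBR3 went from 3 to 368 reads in Cal27, a ratio of 123 (41.7 to 598), and the pseudoreceptor BAMBI rose there from 0.179 and 0.24 to 7.24 and 9.09 CPM. The HLH protein ID2 rose in Cal27 from 0.298 and 0.419 to 3.57 and 2.41 CPM, with a difference that was lost without any of 7 single libraries at values from -3.21 to -1.78, while ID1 and ID3 were lower in FaDu, at -1.23 and -1.11 on the log2 scale. INHBA, the activin subunit, fell in Cal27 (-2.45).

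Of 26 WNT pathway genes, 11 rose and 4 fell in Cal27 and 3 rose and 1 fell in FaDu. All 3 FaDu rises (WNT5B, DKK3 and TCF7) were also called in Cal27. Without Cal27 AfaR replicate 1 2 fell in Cal27, and without FaDu AfaR replicate 1 2 fell in FaDu. The non-canonical ligand WNT5B rose from 0.703 and 0.591 to 2.82 and 6.83 CPM in FaDu and from 1.55 and 1.32 to 6.97 and 12 CPM in Cal27, and was not called in FaDu without parental replicate 1, at 3.02. DKK3, a secreted glycoprotein, rose from 10.7 and 16 to 53.9 and 54.7 CPM in FaDu and from 72.7 and 41.9 to 142 and 137 CPM in Cal27, where its value was 0.93 without parental replicate 2. WNT7A fell in Cal27 from 49.5 and 34.9 to 3.78 and 3.58 CPM and WNT3A from 6.61 and 7.37 to 1.59 and 0.645 CPM, while the receptor FZD7 rose from 19.4 and 19.2 to 119 and 141 CPM. The WNT3A difference was not called without any of 7 single libraries, at values from 2.59 to 3.54. AXIN2, a target of canonical signalling, rose in Cal27 (5.69) and its difference was not called. Of 18 NOTCH pathway genes, 8 fell and 2 rose in Cal27 and 3 rose in FaDu, with 7 called positive differences. The FaDu rises numbered 0 without either FaDu parental library or AfaR replicate 2 and 1 with DESeq2 or without either Cal27 AfaR library, and the Cal27 rises 1 without Cal27 parental replicate 2 or AfaR replicate 1. NOTCH3 fell in Cal27 from 98.3 and 163 to 9.76 and 3.4 CPM and had 67.1 and 72.1 and 20.7 and 53.7 CPM in FaDu, where a fall of -1.74 was called without AfaR replicate 2. The ligand DLL1 fell in Cal27 from 60 and 61.4 to 19.5 and 11.1 CPM and was at 39.4 and 38.4 and 59.8 and 72.1 CPM in FaDu, with a called difference of 2.75. HES2 was called higher in FaDu, from 1.86 and 1.24 to 3.07 and 10.1 CPM, and lower in Cal27, from 11 and 9.65 to 1.76 and 0.587 CPM. Its FaDu call was lost without either parental library (2.41 and 1.82) or AfaR replicate 2 (1.00). Of 16 targets of YAP and TAZ, 2 rose in FaDu, and 2 rose and 1 fell in Cal27, and AXL alone had a called difference. The FaDu count was 0 without AfaR replicate 2 and 1 without either FaDu parental library, and the Cal27 falls numbered 0 to 3, with 0 without parental replicate 1, 3 without parental replicate 2 and 2 without AfaR replicate 2.

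Most interferon-stimulated genes had higher values in the AfaR cells of both lines. Of 43 tested, 17 were called higher in FaDu and 33 in Cal27, and 14 in both, with 41 and 42 log2 values above 0. No member was called lower by edgeR or DESeq2, and at an unadjusted p under 0.05 0 were lower in FaDu and 1 in Cal27. Their median log2 fold change was 1.05 in FaDu and 1.78 in Cal27, and 12 had a called difference, 10 of them in favour of Cal27. The libraries of a group differed in level: FaDu AfaR replicate 2 was above replicate 1 in 43 of 43 genes, FaDu parental replicate 2 above replicate 1 in 42, and Cal27 AfaR replicate 1 above replicate 2 in 43. The FaDu count varied with the library left out: 2 genes were called higher in FaDu without parental replicate 1, 12 without parental replicate 2, 29 without AfaR replicate 1 and 7 without AfaR replicate 2. The Cal27 count stayed between 23 and 34, and the count of called differences was 6 without Cal27 AfaR replicate 1, 7 without FaDu parental replicate 2 or Cal27 parental replicate 1 and 20 without FaDu AfaR replicate 2. Rises in both lines numbered 2 without FaDu parental replicate 1, 6 without FaDu AfaR replicate 2 and 23 without FaDu AfaR replicate 1.

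IFI27 (ENSG00000165949, chromosome 14, 94104836 to 94116698, forward strand), a mitochondrial protein induced by type I interferon, went from 5.37 and 3.92 to 204 and 283 CPM in FaDu and from 43 and 55.6 to 441 and 319 CPM in Cal27. Each AfaR library was above each parental one in both lines, and the rise was the larger one in FaDu, by a log2 difference of 2.76 (standard error 0.322, adjusted p = 0.000318). IFI44L went from 1.61 and 4.3 to 5.44 and 25.4 CPM in FaDu and from 1.79 and 1.02 to 144 and 72.5 CPM in Cal27. Its FaDu parental and AfaR libraries lay close, at 4.30 and 5.44 CPM at the nearest, and its FaDu call was lost with DESeq2 and without any of 4 single libraries, at 0.91 without AfaR replicate 2. Its difference of -3.86 was not called without FaDu parental replicate 2 (-3.02), Cal27 parental replicate 2 (-3.50) or Cal27 AfaR replicate 1 (-3.27). IFIT1, which binds foreign RNA, rose in Cal27 from 5.6 and 9.53 to 208 and 112 CPM and overlapped between groups in FaDu, at 30.3 and 54.9 and 51 and 92.3 CPM. The OAS family enzyme OAS2 rose from 3.92 and 5.59 to 19.3 and 84.1 CPM in FaDu and from 22.5 and 26.7 to 303 and 176 CPM in Cal27, with a difference of 0.16 (standard error 0.753) and a FaDu call that was lost without FaDu parental replicate 1, at 3.21. IRF1, a factor of this program, had a called positive difference of 1.05.

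The 250 bases before the RefSeq starts (GRCh38.p14, forward strand) of IFI27 (chr14:94110486-94110735), IFI44L (chr1:78620198-78620447) and IFIT1 (chr10:89392373-89392622) are shown because these genes had the largest called differences of the list, in either direction. Capitals mark matches to the ISRE core letters TTTCNNTTTC or the other strand, GAAANNGAAA.
IFI27: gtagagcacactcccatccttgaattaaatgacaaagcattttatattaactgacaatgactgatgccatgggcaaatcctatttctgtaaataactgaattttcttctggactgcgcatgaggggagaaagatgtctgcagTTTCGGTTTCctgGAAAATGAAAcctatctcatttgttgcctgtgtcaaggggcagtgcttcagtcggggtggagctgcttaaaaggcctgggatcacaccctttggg
IFI44L: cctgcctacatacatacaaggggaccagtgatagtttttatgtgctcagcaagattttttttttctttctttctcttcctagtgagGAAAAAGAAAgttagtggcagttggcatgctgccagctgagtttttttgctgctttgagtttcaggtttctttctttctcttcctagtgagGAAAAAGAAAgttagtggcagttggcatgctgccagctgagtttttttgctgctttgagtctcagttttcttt
IFIT1: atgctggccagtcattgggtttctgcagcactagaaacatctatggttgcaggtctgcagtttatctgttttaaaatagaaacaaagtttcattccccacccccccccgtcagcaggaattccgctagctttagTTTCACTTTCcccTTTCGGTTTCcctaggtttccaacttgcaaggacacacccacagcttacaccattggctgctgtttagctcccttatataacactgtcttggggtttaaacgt
The matches begin 108 and 95 bases before the start in IFI27, 164 and 73 in IFI44L and 116 and 103 in IFIT1. In windows from 250 bases before to 50 after the start, the core was found for 4.38% of 27305 genes and for 23 of 34 list members with a window (67.6%). It was found for 8 of 13 members higher in both lines (61.5%) and 15 of the other 21 (71.4%).

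**Figure D5:**
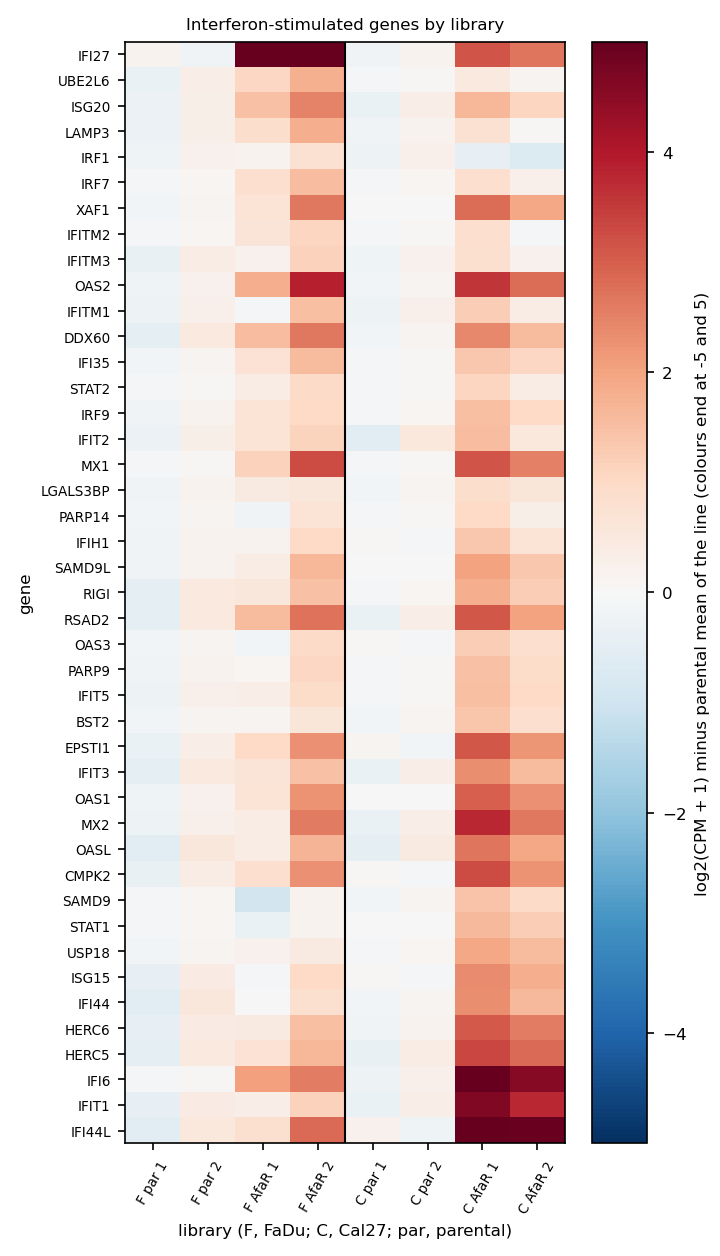
Log2(CPM + 1) of the 43 interferon-stimulated genes in each of the 8 libraries, as the difference from the mean of the parental libraries of the same line. Both Cal27 AfaR libraries and FaDu AfaR replicate 2 are raised in most genes, FaDu AfaR replicate 1 less, and 17 genes were called higher in FaDu and 33 in Cal27.

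Of 16 genes of MHC class I antigen presentation, 3 rose in each line and HLA-B in both. Without FaDu AfaR replicate 1 6 rose in FaDu and 3 in both. The immunoproteasome subunit PSMB9 rose in FaDu from 14.7 and 25.7 to 57.9 and 84.8 CPM and was at 187 and 197 and 156 and 177 CPM in Cal27, a difference of 2.03 (adjusted p = 0.00222). ERAP1, a peptide-trimming protease, had 82.1 and 91.5 and 135 and 196 CPM in FaDu and a called difference of 1.22, which was 0.95 without FaDu AfaR replicate 2. HLA-B rose from 114 and 82.8 to 236 and 449 CPM in FaDu and from 378 and 529 to 1246 and 1295 CPM in Cal27, with reads that may be shared with other HLA genes. Of 27 cytokines, chemokines and NF-kB feedback genes, 12 fell and 3 rose in Cal27, and 3 rose and 1 fell in FaDu. The FaDu rises numbered 0 without parental replicate 1 or AfaR replicate 2 and 5 without AfaR replicate 1, the FaDu falls 2 without AfaR replicate 2, and the Cal27 falls 7 without parental replicate 2. The alarmin IL1A (ENSG00000115008, chromosome 2, 112773915 to 112784590, reverse strand) fell in Cal27 from 401 and 408 to 8.5 and 11.1 CPM and IL1B from 455 and 437 to 27.3 and 34.4 CPM. In FaDu IL1A was at 43 and 34.9 and 30.6 and 33.3 CPM, and its difference was 5.08 (standard error 0.221, adjusted p = 1.86e-06). The colony-stimulating factor CSF3 fell in Cal27 from 2.14 and 7.25 to 0.219 and 0.117 CPM, with a difference that was lost without any of 5 single libraries, at values from 4.69 to 6.73. IL6 rose in both lines, from 0.201 and 0.43 to 1.19 and 2.56 CPM in FaDu and from 28.6 and 48.7 to 215 and 217 CPM in Cal27, as did the chemokine CXCL11, from 0.1 and 0.107 to 0.297 and 1.38 CPM and from 7.62 and 8.03 to 22.1 and 21.7 CPM. Both lost their FaDu call without either FaDu parental library or AfaR replicate 2, at values from 1.92 to 3.20 for IL6 and from 1.47 to 3.02 for CXCL11. Of 15 mucosal secretory genes, 10 fell and 1 rose in Cal27, and WFDC2 rose in FaDu, where 2 rose without AfaR replicate 1. The membrane mucin MUC4 fell in Cal27 from 4.59 and 11.1 to 0.494 and 0.469 CPM, and the tetraspanin TSPAN8 rose there from 3 to 23 reads, a call that DESeq2 did not make (2.88) and that was lost without any 1 of the 4 Cal27 libraries, at values from 2.37 to 3.31. Without FaDu AfaR replicate 2 the MUC4 difference (2.79) was not called, and that of TSPAN8 was lost with DESeq2 and without any of 7 single libraries, at values from -4.75 to -3.79.

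Few growth genes were called, while log2 values of some lists mostly shared a sign within a line. Values above 0 numbered 2 in FaDu and 24 in Cal27 among 29 mitotic genes. They numbered 2 and 5 among 29 DNA replication genes, and 1 and 0 among 26 ribosome biogenesis genes. None of 29 mitotic genes was called by edgeR or DESeq2 in either line or in the difference, with medians of -0.24 in FaDu and 0.26 in Cal27. At an unadjusted p under 0.05, 10 were lower in FaDu, 10 higher and 1 lower in Cal27, and 14 had a negative difference. Without Cal27 AfaR replicate 1, 3 negative differences were called, and 1 without FaDu parental replicate 2 or Cal27 parental replicate 1. By library, the median log2 ratio of mitotic genes to the Cal27 parental level was 0.12 and -0.12 in the parental libraries. It was 0.09 and 0.42 in the Cal27 AfaR libraries, so the Cal27 groups overlapped. In FaDu it was 0.04 and -0.04 in parental and -0.29 and -0.13 in AfaR libraries. Of 29 DNA replication genes, 0 were called in FaDu by either tool, with 11 lower at an unadjusted p under 0.05, and 1 rose (TYMS) and 2 fell (GINS1 and PCNA) in Cal27. Thymidylate synthase, TYMS, rose in Cal27 from 107 and 87.1 to 169 and 226 CPM and had 134 and 121 and 122 and 112 CPM in FaDu, and its Cal27 value was under the fold limit without parental replicate 2 (0.88) or AfaR replicate 2 (0.79). Without the latter its difference was -0.93 and 6 replication genes were called lower in Cal27, against 1 without parental or AfaR replicate 1. Of 13 G1 cyclins, CDKs and inhibitors, CCND2 was the single FaDu call, with 2 rises without FaDu AfaR replicate 1. CDK6, the kinase partner of D-type cyclins, fell in Cal27 from 166 and 162 to 61.8 and 62.5 CPM, and the inhibitor CDKN2C rose there from 12.7 and 11.8 to 49.2 and 58 CPM. The CDK6 difference was 0.95 without FaDu parental replicate 2. Of 26 ribosome biogenesis genes, 6 were called lower in Cal27 and 0 in FaDu by either tool, with medians of -0.93 and -0.47, and 22 had an unadjusted p under 0.05 and a negative value in FaDu. The Cal27 count was 2 without parental or AfaR replicate 1, 15 without parental replicate 2 and 14 without AfaR replicate 2. RCL1 had the only called difference of that list, 1.09, which was lost without any of 5 single libraries at values from 0.86 to 1.09. Of 16 BCL2 family genes, 0 were called in FaDu by either tool, with 2 at an unadjusted p under 0.05, and BMF rose and BCL2A1 and BIK fell in Cal27. BIK, a pro-apoptotic member, fell from 11.4 and 12.6 to 3.68 and 4.28 CPM, and the anti-apoptotic BCL2A1 from 2.92 and 4.43 to 0.274 and 0.235 CPM, with a difference that was lost without any of 6 single libraries at values from 2.80 to 4.01.

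Among metabolic lists, cholesterol and fatty acid synthesis fell in Cal27, with 14 of 26 genes lower, 1 higher (PMVK) and 10 called positive differences. The stearoyl-CoA desaturase SCD fell in Cal27 from 1445 and 1880 to 204 and 127 CPM and the fatty acid synthase FASN from 1179 and 1131 to 196 and 189 CPM. In FaDu SCD was at 819 and 868 and 374 and 986 CPM and FASN at 2069 and 2271 and 1439 and 1866 CPM, neither of them called. DHCR7, of the last step to cholesterol, fell in Cal27 from 529 and 538 to 151 and 144 CPM. No gene of the list was called lower in FaDu by edgeR or DESeq2 with all libraries, with 10 lower at an unadjusted p under 0.05. Without FaDu AfaR replicate 2, 7 were called lower in FaDu, SCD among them at -1.16, and the called positive differences numbered 5, against 4 without FaDu parental replicate 1, 5 without FaDu parental replicate 2 or Cal27 AfaR replicate 2 and 6 without Cal27 parental or AfaR replicate 1. Of 27 hypoxia and glycolysis genes, 6 fell and 2 rose in Cal27 and 2 rose in FaDu, with 8 called positive differences. The FaDu rises numbered 0 without parental replicate 1 and 1 without any of 4 other libraries, the Cal27 falls 3 without parental replicate 2, the Cal27 rises 1 without parental replicate 2 or AfaR replicate 1, and the positive differences 5 without any of 4 single libraries. The oxygen sensor EGLN3 rose in FaDu from 13 and 13.9 to 25.3 and 29.8 CPM and fell in Cal27 from 18.9 and 42.1 to 10.5 and 9.15 CPM, and its FaDu call, and with it the opposite class, was lost without any of 5 single libraries, at values from 0.93 to 1.08. Its Cal27 value was -0.95 without parental replicate 2. NDRG1, a hypoxia-induced gene, fell in Cal27 from 43.8 and 135 to 31.5 and 25.9 CPM and had a FaDu log2 value of 1.20 that was not called. Its Cal27 call was lost without parental replicate 2 (-0.61) or AfaR replicate 2 (-1.51). ANGPTL4, a lipase inhibitor, rose in Cal27 from 0.953 and 0.719 to 4.06 and 12.9 CPM, with a difference that was lost without FaDu parental replicate 1 (-2.92) or Cal27 AfaR replicate 2 (-2.32).

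Of 21 NRF2 targets, 3 rose in FaDu and 5 in Cal27, with the aldo-keto reductase AKR1C3 in both and 6 called negative differences. The FaDu count was 0 without parental replicate 1, the count of rises in both 2 without Cal27 parental or AfaR replicate 1, and the negative differences 3 without Cal27 AfaR replicate 2. AKR1C3 went from 3.11 and 3.76 to 7.23 and 8.04 CPM in FaDu and from 3.63 and 3.84 to 9.87 and 10.7 CPM in Cal27, and its close paralogs may share reads with it. Its FaDu value was 1.02 and not called without parental replicate 1. Heme oxygenase, HMOX1, rose in Cal27 from 4.11 and 4.25 to 28.9 and 44.9 CPM. Of 18 AHR targets and drug-metabolizing enzymes, 2 rose in FaDu, and 2 rose and 5 fell in Cal27. The FaDu count was 4 without FaDu AfaR replicate 1 or Cal27 parental replicate 1 and 1 without any of 4 other libraries, and the Cal27 rises numbered 1 without its parental replicate 1. CYP1A1, the standard AHR target, rose in FaDu from 0.803 and 0.967 to 4.65 and 7.79 CPM and was at 11.6 and 11.6 and 7.02 and 6.34 CPM in Cal27, a difference of 3.61 (adjusted p = 0.000326). ALDH3B2 fell in Cal27 from 2.92 and 8.45 to 0.439 and 0.176 CPM and the vitamin D hydroxylase CYP24A1 from 15.5 and 88.9 to 2.14 and 1.17 CPM, whose difference was not called without Cal27 AfaR replicate 2, at 4.41. DESeq2 also called ALDH3B2 higher in FaDu, at 1.92. Of 13 ABC transporters, 2 rose in FaDu and 5 in Cal27. These counts were 1 without either FaDu parental library and 3 without Cal27 AfaR replicate 2. ABCB1, the multidrug efflux pump, rose in FaDu from 0.602 and 0.591 to 5.54 and 6.12 CPM, while its call in Cal27 rested on 0 and 5 reads, at least 1.67-fold higher, and was lost with DESeq2 and without any of 6 single libraries. ABCC3 rose in Cal27 from 33.1 and 42.8 to 182 and 160 CPM, and the sterol exporter ABCG1 rose in FaDu from 0.703 and 0.591 to 3.91 and 3.6 CPM. The ABCG1 rise was not called without either FaDu parental library (2.65 and 2.40), and its difference not without any of 5 single libraries, at values from 2.42 to 2.67. ABCC2 had a called difference of -2.14 without a call in either line, at levels under 3 CPM, which was lost with DESeq2 and without any of 7 single libraries at values from -2.34 to -1.79.

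Markers of other cell types were followed beside these groups. In these cultures fewer cells of a type and less RNA per cell cannot be told apart. In CPM of the library's gene total, with no TMM scaling, the 14 fibroblast and smooth muscle markers summed to 82.1 and 93.1 CPM in Cal27 parental and 382 and 349 CPM in Cal27 AfaR libraries, and to 22 and 28.5 and then 49.5 and 67.6 CPM in FaDu. The sums were thus higher in the AfaR libraries of both lines, but each rested largely on 1 gene. On that scale COL1A1 alone held 295 and 288 CPM of the Cal27 AfaR sums. PDPN held 31.2 and 46.3 CPM of the FaDu AfaR sums, and 12.4 and 17 CPM of the FaDu parental ones. Of the 11 markers tested, 6 had a positive log2 fold change in FaDu and 6 in Cal27. Of these markers 1 to 3 were at 0 in each library, and DCN, PDGFRA and FAP were too low to be tested. PDPN, called higher in FaDu (from 13.7 and 18.6 to 31.1 and 45.4 CPM) and lower in Cal27 (from 45.6 and 43.5 to 11.5 and 9.8 CPM), is also a marker of squamous carcinoma cells, and its FaDu call was lost without parental replicate 1 (1.04) or AfaR replicate 2 (0.96). The 13 immune and endothelial markers summed to between 17.8 and 57.8 CPM over the 8 libraries, with 3 to 4 at 0 in each, and the lysozyme gene LYZ alone had a called difference (-4.58), lost without any of 5 single libraries at values from -5.80 to -3.32. The part of such cells in the results was not tested.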

How the data were processed

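Poly(A) RNA of 8 cultures was sequenced as paired ends on an Illumina HiSeq. The authors deposited raw read counts per gene, which the submitters' processing notes tie to Trimmomatic 0.36, STAR 2.5.2b, featureCounts of Subread 1.5.2 and GRCh38. Strand, multi-mapping reads and the annotation release are not given in the sources used here. Deposited normalized tables of single comparisons were not used, and 0 columns were left unassigned. Library totals set the precision of low counts, for which exact 95% intervals or a floor of 3 counts were given.

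Symbols came from GENCODE by gene ID (56948 of 58051 matched), and promoter letters from RefSeq. The 92 ERCC spike-ins, 5.64% to 5.82% of reads in FaDu and 4.25% to 4.54% in Cal27, were kept out of library sizes. Counts were filtered (filterByExpr), TMM-normalized and fitted over the 8 libraries in edgeR 4.0.16 (R 4.3.3) with the quasi-likelihood test and Benjamini-Hochberg adjustment. The contrasts were AfaR minus parental in each line and their difference, and tests were checked on simulated data. Medium and line were confounded.

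Named genes were, for each of 8 classes, the 4 with the largest ranking measure among genes with a symbol, no pseudogenes, a mean of at least 5 CPM in some group and libraries that did not overlap. The measure was the smaller absolute fold change of both lines for genes called in both, and the absolute difference otherwise. For each of 37 lists, up to 3 members with the largest called differences and up to 2 called in both lines in the same direction were added, with EGFR, ERBB2, ERBB3, MET, CDH1, CDH2, VIM, NEDD9, AURKA, TPX2, WEE1, MYC and TGFB1. Other list members were named after their values were seen. Genes and lists were chosen with earlier results of these data known. Alternatives were DESeq2 1.42.0, unadjusted p, glmTreat, all 12 libraries including erlotinib-resistant ones, a replicate block, other filters, RLE, upper quartile and ERCC scaling, and leaving out each library, where a lone library was assumed to vary like the other groups. 1 list member is not reported here.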

Additional observations from a re-analysis of the deposited data

Results flagged for a closer look

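The AfaR effect differed between FaDu and Cal27 in 2032 genes by edgeR's test of the interaction term, and the named genes among them are listed here with their log2 difference, FaDu minus Cal27. A gene of several lists is given once. Groups of 2 libraries were not tested for outlying samples. Genes named for their class and in no list had the following differences. Positive ones were 4.17 for APOBEC3G, 5.31 for FAM83F, 6.35 for NOS1, 4.63 for PRSS8, 5.47 for SDR42E1, 7.54 for SERPINA5 and 6.77 for TMPRSS3. Negative ones were -6.58 for ALPP, -5.09 for CPA4, -3.16 for CYP26B1, -13.74 for GDNF, -4.32 for LINC00958, -9.28 for LINC01443, -3.05 for NEURL1, -12.54 for PTGFR, -4.74 for SARDH and -7.85 for SEMA5A. Where a group had 0 reads, as for GDNF, PTGFR, RHCG, COL11A1 and ABCB1 in Cal27, the fitted value depends on the prior count and is no bound.

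Among ERBB receptors and negative regulators the differences were 1.23 for EGFR, 1.90 for ERBB3 and 1.25 for LRIG1. For ERBB ligands they came to 1.75 for AREG, 3.13 for HBEGF and -2.05 for BTC. The values within other receptor tyrosine kinases were -1.32 for AXL, -4.06 for FGFR1, 2.09 for FGFR3 and 1.51 for FGFR4. RAS, PI3K and PKC effectors had differences of -1.72 for PIK3CD, 1.51 for GAB2 and -2.89 for PRKCA. Among ERK feedback and output genes the differences were -3.28 for ETV1, -5.77 for EPHA4 and 1.65 for MYC. For NEDD9, AURKA and partners they came to 2.73 for NEDD9 and 1.89 for EFS. The values within TGF-beta ligands, receptors and targets were -2.20 for TGFB1, -7.36 for TGFBR3, -4.70 for BAMBI and -2.95 for ID2. WNT ligands, receptors and targets had differences of 3.10 for WNT3A, 3.11 for WNT7A and -2.61 for FZD7. Among NOTCH receptors, ligands and targets the differences were 3.40 for NOTCH3, 2.75 for DLL1 and 5.20 for HES2.

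For epithelial junction genes they came to 3.13 for CDH1, 4.01 for DSG3, 3.54 for PKP1 and 3.88 for RAB25. The values within epithelial transcription and splicing factors were 3.22 for GRHL1, 3.31 for OVOL1 and 3.44 for ESRP1. EMT transcription factors had differences of -5.63 for ZEB1, -3.72 for ZEB2, -2.75 for TWIST1 and -3.08 for FOXC2. Among mesenchymal cytoskeleton and adhesion genes the differences were -5.68 for VIM, -2.22 for MYLK and -1.32 for CD44. For keratin genes they came to 8.11 for KRT6B, 5.86 for KRT14 and 6.48 for KRT75. The values within cornified envelope and squamous differentiation genes were 7.59 for S100A8, 6.59 for S100A9 and 9.35 for RHCG. Squamous lineage transcription factors had differences of 7.85 for BCL11A, 4.39 for TRIM29 and 3.96 for ZNF750. Among collagen genes the differences were -2.32 for COL1A1, -8.82 for COL6A3, 5.59 for COL11A1 and 4.13 for COL17A1. For matrix glycoproteins and proteoglycans they came to -5.22 for FBN1, -9.41 for LUM and -5.42 for IGFBP5. The values within matrix proteases and inhibitors were -2.68 for MMP1, -3.91 for MMP2, -4.12 for MMP13 and 3.62 for MMP28. Integrins and laminins had differences of 2.17 for ITGB4, 2.67 for ITGB6 and 2.44 for LAMA3.

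Among interferon-stimulated genes the differences were 2.76 for IFI27, -3.86 for IFI44L and -3.65 for IFIT1. For MHC class I antigen presentation genes they came to 2.03 for PSMB9 and 1.22 for ERAP1. The values within cytokines, chemokines and NF-kB feedback genes were 5.08 for IL1A, 3.54 for IL1B and 6.22 for CSF3. Mucosal secretory genes had differences of 4.52 for WFDC2, 3.99 for MUC4 and -4.21 for TSPAN8. Among G1 cyclins, CDKs and CDK inhibitors the differences were 7.48 for CCND2, 1.06 for CDK6 and -1.41 for CDKN2C. TYMS, of the DNA replication genes, was at -1.16. RCL1, of the ribosome biogenesis genes, was at 1.09. For BCL2 family genes they came to 3.73 for BCL2A1 and 1.31 for BIK. The values within cholesterol and fatty acid synthesis genes were 2.12 for DHCR7, 2.19 for FASN and 3.02 for SCD. Hypoxia and glycolysis genes had differences of 2.84 for NDRG1, 2.67 for EGLN3 and -3.39 for ANGPTL4. Among NRF2 target genes the differences were -2.46 for HMOX1, -2.14 for ABCC2 and -1.53 for ABCC3. For AHR targets and drug-metabolizing enzymes they came to 3.61 for CYP1A1, 4.76 for CYP24A1 and 6.09 for ALDH3B2. The ABC transporter gene ABCG1 was at 2.57, beside ABCC2 and ABCC3 above. LYZ, of the immune and endothelial markers, was at -4.58. Of the fibroblast and smooth muscle markers PDPN was at 3.31, beside LUM and COL1A1 above.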

How the results depend on the processing

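With 2 libraries per group and 1 resistant population per line, the FaDu calls were the less settled ones. Against 1140 genes called in FaDu, 3117 in Cal27 and 2032 for the difference, DESeq2 gave 1021, 2828 and 1990, with 1835 of the 2032 differences among them. For the 151 named genes, the counts that follow concern the difference between the lines alone, and not the calls within a line. A gene counts as unchanged where its difference kept its direction and its side of the threshold, also if it was never called. Unchanged were 147 with DESeq2, 151 with RLE or upper quartile scaling, 149 with ERCC scaling, 145 with all 12 libraries and 148 without a filter. At 10 counts or more in every library 96 genes could be followed, and all of these were unchanged. Testing against a fold change of 2 left 114 named genes unchanged in this sense, and 37 lost a called difference. Leaving out 1 library left from 117 to 139 unchanged. Without FaDu AfaR replicate 2, 19 called differences were lost and 13 signs turned.

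An unadjusted p gave 1827 FaDu calls, 642 genes in the same direction, 167 in opposite directions and 402 in FaDu only. Testing against a fold change of 2 (glmTreat) gave 98 calls in FaDu, 1483 in Cal27, 703 for the difference, 32 in the same direction, 4 in opposite directions, 24 in FaDu only and 541 in Cal27 only. With at least 10 counts in every library, where fewer genes were tested, 2000 genes were called in Cal27 and 58 in opposite directions, and with no filter 145 in opposite directions. Scaling to the ERCC spike-in moved the median of all genes to 0.19 in FaDu, 0.01 in Cal27 and 0.18 for the difference, and called 1352 genes higher and 102 lower in FaDu and 1496 differences positive and 601 negative, so that directions are relative to that shift.

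Leaving out 1 library at a time gave 333 to 1199 calls in FaDu, 2434 to 3190 in Cal27, 1551 to 1987 for the difference, 137 to 459 in the same direction, 29 to 110 in opposite directions, 75 to 231 in FaDu only and 935 to 1174 in Cal27 only. Between 1450 and 1714 of the 2032 differences remained called. FaDu parental replicate 1, FaDu parental replicate 2 and FaDu AfaR replicate 2 decided most, with 137, 276 and 265 genes in the same direction without them, 29, 51 and 44 in opposite directions and 75, 142 and 135 in FaDu only.

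The labels do not say that a replicate number marks a shared origin. The deviations of same-numbered samples had r = 0.177 in FaDu and -0.282 in Cal27, and with 2 numbers per line whether the numbers pair the samples was not settled. A replicate block gave 976 calls in FaDu, 2958 in Cal27 and 1867 for the difference. In 142 of the 151 named genes the difference kept its direction and side of the threshold, with calls within a line not counted. The block ended the FaDu calls of KCNIP3, SERPINB2, NRG2 and HES2, the Cal27 calls of ABCB1 and COL11A1 and the differences of ABCC2, BCL2A1, COL11A1, FOXC2, ID2, TSPAN8 and WNT3A, and it called KRT14 and LYZ lower in FaDu and CYP26B1 higher in Cal27. The crossed pairing in Cal27, chosen after seeing the data, gave 1371, 3215 and 2322 calls.

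Some values turned sign, and none of these was a called difference. CDH2 was 0.03 with ERCC scaling and OAS2 -0.07 with the replicate block and -0.04 with its crossed form. When single libraries were left out, the differences ranged from -0.98 to 0.04 for CDH11, -0.39 to 0.14 for CDH2, -0.00 to 2.17 for CXCL11, -2.03 to 0.45 for EGR1, -0.07 to 0.17 for ERBB2, -0.30 to 0.54 for ETV4, -0.21 to 0.64 for FBLN5 and -0.06 to 1.00 for FBN2. They ranged from -0.20 to 0.71 for HLA-B, -0.55 to 0.69 for IL6, -1.15 to 0.64 for ILDR2, -1.68 to 1.72 for KCNIP3, -0.58 to 1.87 for KLK10, -0.04 to 0.47 for KRT18, -0.11 to 2.48 for MUC2 and -1.58 to 0.00 for NRG2. The ranges were -1.24 to 0.86 for OAS2, -2.15 to 2.80 for SERPINB2, -0.06 to 1.71 for SULF1, -0.07 to 0.18 for WEE1 and -0.59 to 0.66 for WNT5B. The causes of these changes were not tested.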
